A study of Mus musculus with 6 samples.

Results

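Retinoid receptors and retinoid handling genes were examined in a mouse melanocyte line of the C57BL/6 strain, Melan-a, whose cells are immortal and pigmented. The cells had received either siDicer, which targets Dicer, or the control siScr. Dicer is the enzyme that cuts microRNAs out of their precursors. The 6 genes are the receptors Rxrg and Rxra, the carrier Crabp2 and the retinoid dehydrogenases Rdh10, Dhrs3 and Dhrs9, out of 7476 genes with a value of their own. They were picked by symbol because they belong to vitamin A metabolism and signalling, with the siDicer and siScr values already known. Their differences between siDicer and siScr are therefore given as a description, without a test. There were 3 arrays in each group, taken at cell passages 47, 54 and 56 in both groups. All cells were of this 1 line, kept with the phorbol ester TPA at 200 nM, and received 50 pmol of siRNA per well. The titles place the samples 48 h after transfection, whereas by the treatment protocol the medium was changed 6 h after transfection and lysates were taken 24 h later.

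Cells take up vitamin A as retinol, oxidise it to retinal and then to retinoic acid, and store the surplus as retinyl esters. Retinoic acid binds the retinoic acid receptors (RAR), which sit on DNA as pairs with a retinoid X receptor (RXR). RXRs also pair with other nuclear receptors, among them those for thyroid hormone, vitamin D, oxysterols and fatty acids. Melanocytes derive from the neural crest, a lineage in which Rxrg is expressed, and retinoic acid is known to alter growth and pigmentation in pigment cells.

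Each gene had 1 transcript cluster on the array and lay above the dim limit of log2 4.16, so all 6 were among 5233 tested genes. Values are log2 signals, on which 1 unit is a doubling, and signals of different genes are not compared because their probes differ. Array medians ran from 4.63 to 4.68. The transcript that the siRNA targets, Dicer1, was not analysed here, so the knockdown and the group labels have no check in these data. The melanocyte markers Tyrp1, Pax3 and Slc24a5 lay between log2 10.27 and 12.96 on every array. Listed markers of keratinocytes (6), fibroblasts (6) and leukocytes (11) lay between 2.61 and 7.07, between 3.84 and 6.63 and between 2.82 and 5.60. The log2 of the summed signal of each of these marker lists overlapped between siDicer and siScr, at 13.16 to 13.40 against 13.26 to 13.55 for melanocytes, 7.97 to 8.06 against 7.93 to 8.15 for keratinocytes, 7.88 to 8.17 against 7.94 to 8.14 for fibroblasts and 8.04 to 8.11 against 8.04 to 8.15 for leukocytes.

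Rxrg and Dhrs3 had the widest differences between siDicer and siScr, in opposite directions: Rxrg was lower in siDicer by log2 0.54 and Dhrs3 was higher by 0.52. Dhrs9 was higher by 0.25 on average, with a spread between passages wider than that. Rxra, Crabp2 and Rdh10 differed by 0.12 or less. Of the 6 genes 3 were higher and 3 lower, with a median difference of -0.0011, against -0.0087 over all tested genes. The groups did not overlap in 2 of the 6, Rxrg and Dhrs3, where 14.7% of all tested genes had groups that did not overlap.

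**Figure D1:**
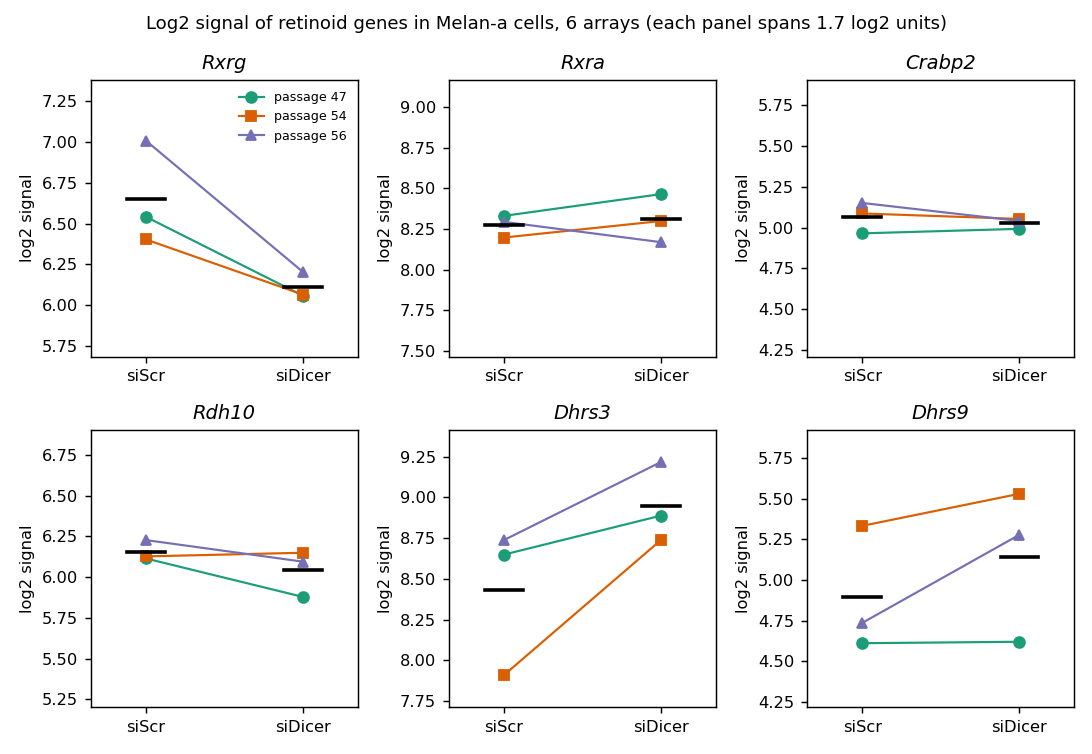
Log2 signal (vertical axis) of each gene in siScr and siDicer (horizontal axis), with 1 point per array, lines joining the arrays of a passage and black bars at the means of 3 arrays. Rxrg lies between 6.06 and 6.20 in siDicer and between 6.40 and 7.01 in siScr, and for Dhrs3 all lines go up, while for Rxra, Crabp2 and Rdh10 lines go both ways.

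Rxrg encodes RXR gamma, the RXR with the narrowest tissue range. Its log2 signal (transcript cluster TC0100001554.mm.1, chromosome 1) was 6.06, 6.06 and 6.20 in siDicer at passages 47, 54 and 56, and 6.54, 6.40 and 7.01 in siScr. Every siDicer array lay below every siScr array, and the siScr array of passage 56 stood highest. The siDicer mean was 6.11 ± 0.082 and the siScr mean 6.65 ± 0.32 (SD, n = 3). The difference was -0.54 with a standard error of 0.15, or 1.46-fold lower. Unless stated, standard errors come from a fit without passage and so include the spread between passages. Within passages 47, 54 and 56 the differences were -0.49, -0.34 and -0.81. Each was beyond the central 95% of all tested genes at the same passage, whose lower limits were -0.40, -0.27 and -0.32. The siDicer arrays spread less than the siScr arrays, so the size of the difference followed the siScr signal, which is part of it. In RNA from whole cultures, fewer cells with a transcript and less of it per cell cannot be told apart. Without siScr replicate 3, the array of passage 56, the difference was -0.36, or 1.49 times smaller. Of the 5233 tested genes 28 had a larger difference in either direction. Rxrg was picked with its difference known, so this rank and the place outside the central 95% are description only.

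RefSeq lists 2 start sites for Rxrg and for Rxra in GRCm38.p6, and the array does not tell transcripts from them apart. The stretches below are shown because RXRs and their partners bind the hexamer AGGTCA, and they are the places that hold it in the promoter windows of Rxrg, Rxra, Dhrs3 and Dhrs9. No window was searched for Crabp2 and Rdh10. A window covers 250 bases before to 50 bases after a start site, and capitals mark AGGTCA or its reverse complement TGACCT. All stretches are on the plus strand, which is also the strand of these genes. In the window of the downstream Rxrg start site 1 hexamer begins 88 bases before the start, and for Rxra 2 begin 87 and 48 bases before the downstream start.
Rxrg, chr1:167618147-167618212: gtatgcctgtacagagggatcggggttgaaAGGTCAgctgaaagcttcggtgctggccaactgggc
Rxra, chr2:27709175-27709240: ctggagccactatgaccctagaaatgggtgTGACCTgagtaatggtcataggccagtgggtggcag
Rxra, chr2:27709214-27709279: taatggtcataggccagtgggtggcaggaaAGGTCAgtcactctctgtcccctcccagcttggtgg
Dhrs9, chr2:69380344-69380409: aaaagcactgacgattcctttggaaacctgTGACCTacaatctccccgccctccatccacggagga

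The Dhrs9 hexamer begins 88 bases before its start site. Of 8 windows of members 3 held the hexamer on either strand, and 16.3% of all 32851 windows of this length did. None of the 8 held AGGTCA as a direct repeat with 1, 2 or 5 bases between the copies, on either strand, and 13, 3 and 3 of all windows did. The 3 windows of Dhrs3 held no exact hexamer.

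Rxra encodes RXR alpha, the most widely expressed RXR. Its signals (TC0200000477.mm.1, chromosome 2) were 8.46, 8.30 and 8.17 in siDicer and 8.33, 8.20 and 8.29 in siScr at passages 47, 54 and 56. The groups overlapped, with the highest and the lowest array both in siDicer. The difference was 0.037 with a standard error of 0.089, and the passages gave 0.13, 0.10 and -0.12. It was 0.11 without siDicer replicate 3 and its sign turned when siDicer replicate 1 (-0.040) or siScr replicate 2 (-0.0014) was left out. Both receptor genes were thus measured on the same arrays, and the difference of Rxrg lay below that of Rxra by 0.62, 0.44 and 0.68 at passages 47, 54 and 56.

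Crabp2 binds retinoic acid in the cytoplasm and hands it to RAR in the nucleus. Its signals (TC0300000710.mm.1, chromosome 3) ran from 4.99 to 5.05 in siDicer and from 4.96 to 5.15 in siScr. The siDicer arrays lay within the range of the siScr arrays, and the difference was -0.039 with a standard error of 0.064. It was -0.090 without siScr replicate 1 and 0.0030 without siScr replicate 3.

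Rdh10 oxidises retinol to retinal, the first step towards retinoic acid. Its signals (TC0100000097.mm.1, chromosome 1) ran from 5.88 to 6.15 in siDicer and from 6.11 to 6.23 in siScr. The difference was -0.12 with a standard error of 0.084, and the groups overlapped. It was -0.24 at passage 47, where the siDicer array was the lowest of the 6, and 0.022 and -0.13 at passages 54 and 56. Without that array the difference was -0.034.

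Dhrs3 works in the opposite direction to Rdh10: it reduces retinal back to retinol, and retinoic acid is known to induce it. Its signals (TC0400001856.mm.1, chromosome 4) were 8.89, 8.74 and 9.22 in siDicer and 8.65, 7.91 and 8.74 in siScr at passages 47, 54 and 56. All siDicer arrays lay above all siScr arrays, by only 0.0020 between the nearest arrays, and the siScr array of passage 54 stood far below the rest. The means were 8.95 ± 0.24 and 8.43 ± 0.46 (SD, n = 3), a difference of 0.52 with a standard error of 0.22, or 1.43-fold higher. The passages gave 0.24, 0.83 and 0.48, all in the same direction, as was the case in 36.4% of all tested genes. At passage 47 the difference lay inside the central 95% of all tested genes (upper limit 0.37), and at passages 54 and 56 it lay above (0.37 and 0.39). Without the siScr array of passage 54, replicate 2, the difference was 0.26, 2.02 times smaller, and with array weights it was 0.32.

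Dhrs9 is a short-chain dehydrogenase that oxidises retinol and other alcohols. Its signals (TC0200001006.mm.1, chromosome 2) were 4.62, 5.53 and 5.28 in siDicer and 4.61, 5.33 and 4.74 in siScr. Both arrays of passage 47 were low and both arrays of passage 54 high, and the groups overlapped. The difference was 0.25 with a standard error of 0.25, or 0.097 with passage in the fit, from passage differences of 0.0088, 0.20 and 0.54. It ranged from 0.056 without siDicer replicate 2 (passage 54) to 0.51 without siDicer replicate 1 (passage 47), and it was 0.11, 0.47 and 0.17 when siScr replicate 1, 2 or 3 was left out. Array weights gave 0.46.

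**Figure D2:**
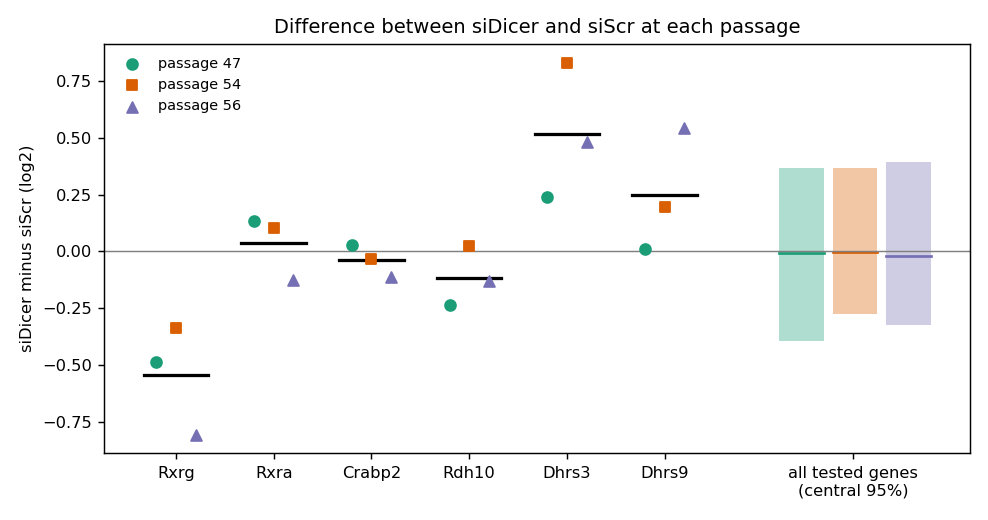
Difference siDicer minus siScr in log2 units (vertical axis) of each gene at passages 47, 54 and 56 (points) with the mean (black bar), beside bars that span the central 95% of all tested genes at each passage. Rxrg lies below the bars at all 3 passages, Dhrs3 above them at 2, and Dhrs9 above them at passage 56 with 0.54.

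For reference, limma (adjusted p under 0.05) called 1 of the 5233 tested genes, 0.0191%, and 0 of the 6 members. With passage as a block it called 99 genes, 1.89%, of which 35 were lower in siDicer, 0.669%, and 1 of the 6 members, Rxrg. Nothing is read from these counts, since the members were chosen with this contrast known. The call of Rxrg was lost without passage 47, when 10 genes were called, and when dim genes were kept in, when 46 were called.

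The genes were picked by symbol, with earlier results of these data known, and their differences among passages were tested. Dhrs9 was the 1 of the 6 that changed between passages: its mean over both groups was 4.62 at passage 47, 5.43 at passage 54 and 5.01 at passage 56, a 1.76-fold range (limma F test with the siRNA in the model, adjusted p = 0.0384). Among all tested genes 103 passed this test, 1.97%. In siScr alone Dhrs9 was higher by 0.72 at passage 54 and by 0.12 at passage 56 than at passage 47, and in siDicer alone by 0.91 and 0.66. The call did not hold without siDicer replicate 1, siDicer replicate 2 or siScr replicate 2 (limma, adjusted p = 0.127, 0.0557 and 0.0760), when the dim genes were added (0.0663) or without a term for the siRNA (0.21), within a range of 0.0020 to 0.21 over 11 alternatives. Each passage is 1 pair of samples, so passage cannot be told apart from anything else the pair shared.

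Dhrs3 had the next widest range of passage means, from 8.32 at passage 54 to 8.98 at passage 56, and did not pass (limma F test, adjusted p = 0.0944). Median centring gave a pass (limma, adjusted p = 0.0332), as did the fit that left out siDicer replicate 2 (limma, adjusted p = 0.0383), and the fit with no term for the siRNA gave the highest value (limma, adjusted p = 0.58). Dhrs3 and Dhrs9 thus stood at opposite ends at passage 54, where Dhrs3 was lowest and Dhrs9 highest. For Rxrg the passage means were 6.30, 6.23 and 6.61 (limma F test, adjusted p = 0.226), with a pass without siDicer replicate 3 (adjusted p = 0.0284) and a highest value of 0.776. Rxra, Crabp2 and Rdh10 had passage means within 0.17 of each other (limma F test, adjusted p = 0.537, 0.613 and 0.508).

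None of the other tested genes of vitamin A handling passed the test between siDicer and siScr. The values covered only clusters of chromosomes 1 to 4, so listed genes elsewhere in the genome had none. Of 53 listed genes 12 had a value, and 8 were tested. Of these, 1 was higher and 7 lower, where 2844 of all 5233 tested genes were lower. Their median was -0.11 against -0.0087 over all tested genes. The direction was the same at all 3 passages in 5 of the 8, against 36.4% of all tested genes. By limma 0 passed with or without passage as a block, and at an unadjusted p under 0.05 there were 0 without the block and 1 with it, where 8.62% and 13.9% of all tested genes had such a p. The largest difference was that of Adh7, an alcohol dehydrogenase that oxidises retinol, with passage differences of -0.42, -0.20 and -0.22. The mean difference was -0.28 with a standard error of 0.18, or 0.069 with passage in the fit. It was -0.46 without siDicer replicate 2 and -0.13 without siDicer replicate 1. Lrat, which makes retinyl esters, differed by -0.17 and Opn3, an opsin that binds retinal, by -0.12. Lrat was at -0.26 without siDicer replicate 1 and -0.086 without siDicer replicate 3, and Opn3 at -0.061 without siDicer replicate 3. Fabp5, a carrier of fatty acids and retinoic acid, differed by -0.12, and by -0.045 without siScr replicate 3. Lrp2, the endocytic receptor megalin, and Stra6l, a receptor for retinol bound to its plasma carrier, differed by -0.017 and 0.0068. The alcohol dehydrogenases Adh1 and Adh5 differed by -0.10 and -0.067. Rpe65, Sdr16c5, Sdr16c6 and Adh4 were dim, with group means from 2.90 to 3.43, and were not tested.

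Among these genes Adh7 changed between passages, with means of 7.03, 7.58 and 7.17 at passages 47, 54 and 56 (limma F test, adjusted p = 0.0405). This call did not hold without siDicer replicate 1, siDicer replicate 2, siScr replicate 1 or siScr replicate 2 (limma, adjusted p = 0.122, 0.198, 0.0647 and 0.114), with no dim filter (0.0662) or with no term for the siRNA (0.392), within a range of 0.0142 to 0.392 over 11 alternatives. Like Dhrs9, Adh7 was highest at passage 54 and lowest at passage 47.

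Most tested genes known to respond to retinoic acid in other cells differed by small amounts, some of them at low signals. Of 40 listed genes 13 were tested, and without the members Crabp2 and Dhrs3 2 were higher and 9 lower, with a median of -0.038. Over all tested genes 2844 of 5233 were lower. Group means of the 11 ran from log2 4.22 in siDicer and 4.26 in siScr for Sox17 to 8.17 and 7.90 for Tgm2. Sox17 lay near the dim limit, and Pax6 was low too, at 4.68 in siDicer and 4.71 in siScr. Whether signals this low could show a response was not tested, so a small difference there does not mean that a gene was unchanged. By limma 0 of these 11 passed with or without the block, and at an unadjusted p under 0.05 there were 0 and 1. The highest was Tgm2, the tissue transglutaminase, at 0.28 with a standard error of 0.24, or 0.089 with passage in the fit. Its difference was 0.21, 0.53 and 0.10 at passages 47, 54 and 56, and it was -0.0071 without siDicer replicate 2 and 0.44 without siDicer replicate 3. Lefty2, a secreted inhibitor of Nodal, differed by -0.13 and by -0.070 without siScr replicate 2. Meis2 differed by -0.073, with -0.083, -0.019 and -0.12 at passages 47, 54 and 56. The groups did not overlap for Lefty2 and Meis2, 2 of the 11, where 14.7% of all tested genes had groups that did not overlap. Tgm2, named after its values were seen, changed between passages, with means of 7.83, 8.48 and 7.79 (limma F test, adjusted p = 0.0336). That call was lost without siDicer replicate 1, siDicer replicate 2 or siScr replicate 1 (limma, adjusted p = 0.103, 0.149 and 0.0861), with no dim filter (0.0586) and with no term for the siRNA (0.263), within a range of 0.0056 to 0.263.

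The values covered only clusters of chromosomes 1 to 4, and few partners of RXR had one. Of 14 listed nuclear receptors that pair with RXR 4 had a value and 3 were tested, with 0 passing by limma with or without the block, and 0 at an unadjusted p under 0.05 in either fit. Nr1h3, the oxysterol receptor LXR alpha, differed by -0.057, Nr1i3, a receptor for foreign compounds, by -0.057, and Nr4a2, an orphan receptor, by 0.10. Nr1h3 was at -0.021 without siDicer replicate 3, Nr1i3 at -0.035 without siScr replicate 2, and Nr4a2 ranged from 0.063 without siScr replicate 2 to 0.16 without siScr replicate 3.

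Of 6 tested nuclear receptors outside these lists 2 were higher and 4 lower, with a median of -0.058. Nr4a3, an orphan receptor of the immediate early response, fell in the fit that blocks on passage (limma, adjusted p = 0.0408). In the fit without it the adjusted p was 0.693, and over 17 alternatives it ran from 0.0371 to 0.882. The call with the block was lost without passage 47 or 54 (limma, adjusted p = 0.115 and 0.0937) and with no dim filter (0.0671). Its signals were 9.16, 8.22 and 8.27 in siDicer and 9.48, 8.67 and 8.99 in siScr at passages 47, 54 and 56. The siDicer array was the lower at each passage, by 0.32, 0.45 and 0.73, and the groups overlapped because both arrays of passage 47 were high. The mean difference was -0.50, and it was -0.80 without siDicer replicate 1 and -0.28 without siScr replicate 1. Nr4a3 also changed between passages (limma F test, adjusted p = 0.0189), a call lost without siDicer replicate 1 (adjusted p = 0.125) and with no term for the siRNA (0.392), within a range of 0.0011 to 0.392.

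Coregulators, which link nuclear receptors to chromatin enzymes, went both ways. Of 6 tested genes 4 were higher and 2 lower, with a median of 0.020. By limma 0 passed with or without the block, and at an unadjusted p under 0.05 there were 2 in each fit, where all tested genes had 8.62% without and 13.9% with the block. They were the coactivators Ncoa3 and Ncoa6. Ncoa3 was at 7.80, 7.75 and 7.81 in siDicer and at 7.48, 7.49 and 7.61 in siScr, a difference of 0.26 ± 0.067 (standard error) and an adjusted p of 0.261 by limma. Ncoa6 differed the other way, by -0.21 ± 0.068 (standard error), with an adjusted p of 0.398 by limma. In both genes the groups did not overlap, as in 14.7% of all tested genes. The deacetylase Hdac1 differed by 0.027, from 0.0095 without siDicer replicate 3 to 0.061 without siDicer replicate 1.

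**Figure D3:**
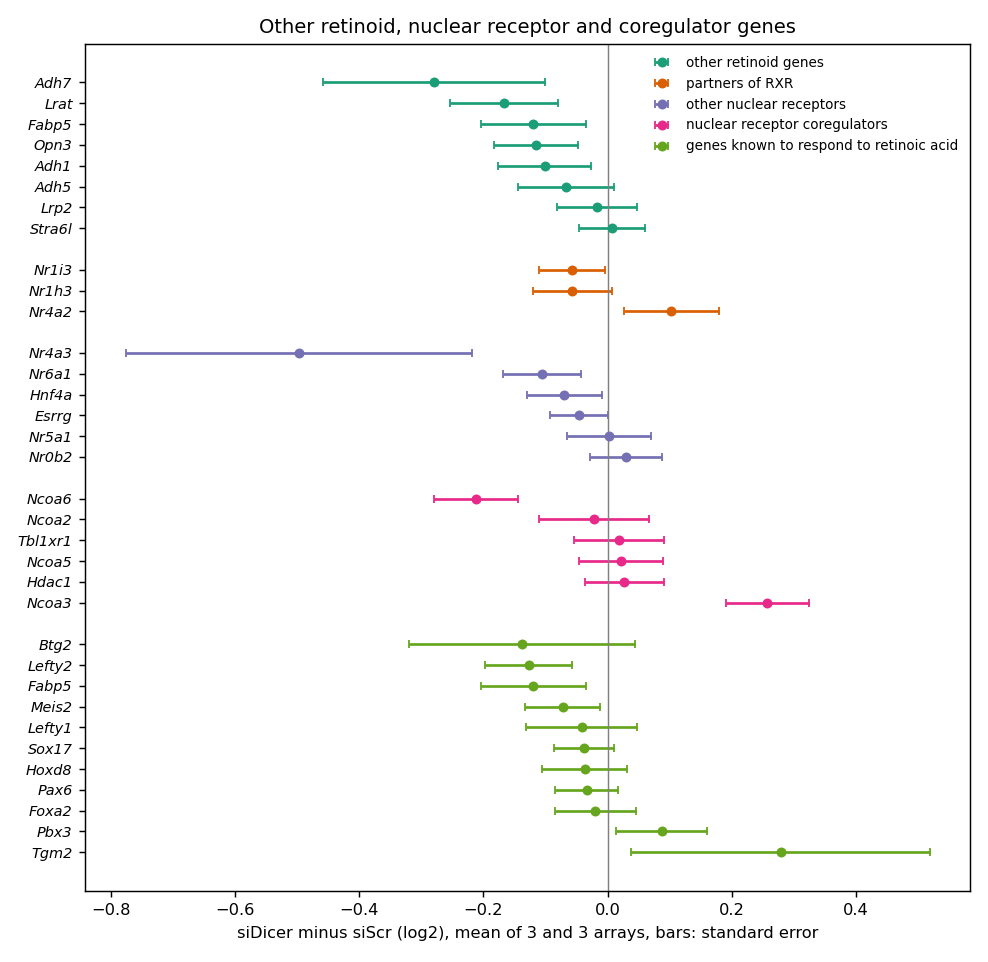
Mean difference siDicer minus siScr in log2 units (horizontal axis) for the tested genes of each list (rows, coloured by list), without the 6 members. Bars are standard errors of the fit without passage, which include the spread between passages. Fabp5 is in 2 lists. Nr4a3 is lowest at -0.50, Tgm2 and Ncoa3 are highest at 0.28 and 0.26, and most others lie near 0.

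Genes with a profile like that of Rxrg were sought among 3380 protein-coding genes, as those with the smallest root mean square difference over the 6 arrays after each gene was centred on its mean. The 5 nearest were Uap1l1, Idh1, Adhfe1, Cflar and Id3, at 0.14, 0.16, 0.16, 0.17 and 0.17 log2 units, where the median gene was at 0.34. Like Rxrg they were highest in siScr at passage 56, and each was lower in siDicer at all 3 passages, by means of 0.29 to 0.52. Dhrs3, the member with the widest range over the arrays among the other 5, was nearest to St6galnac3, H2ac21 and Lef1, at 0.15, 0.15 and 0.17, with a median of 0.41. These 3 shared with Dhrs3 a siScr array of passage 54 below the others. The profiles hold the siRNA difference itself, so these differences are no separate support.

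**Figure D4:**
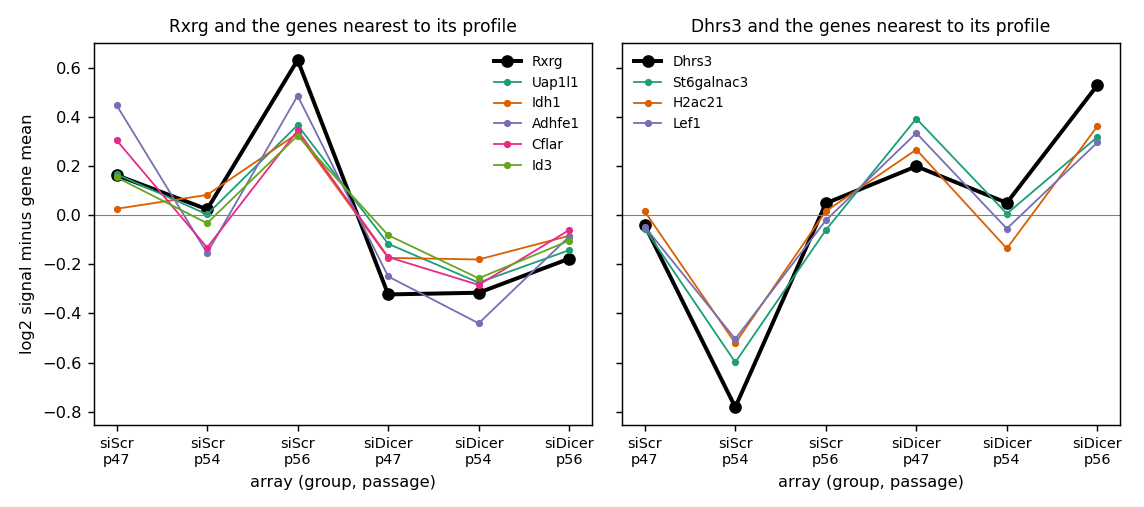
Log2 signal minus the gene's mean over 6 arrays (vertical axis) for each array (horizontal axis, group and passage p47, p54 or p56), for Rxrg with its 5 nearest genes and Dhrs3 with its 3 nearest. Lines only join the points of a gene. Rxrg and its 5 nearest genes are highest in siScr at passage 56, and the lowest array of Dhrs3 and its 3 nearest genes is that of siScr at passage 54.

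The tested genes nearest to Rxrg and Dhrs3 on the chromosome had mean differences near 0, from passages that went opposite ways. In RefSeq order the nearest tested genes on either side of Rxrg were Mgst3 and Lmx1a, which differed by 0.082 and -0.016. Mgst3 had 2 other genes between it and Rxrg, and Lmx1a had 0. Mgst3 was at 0.19, 0.26 and -0.21 at passages 47, 54 and 56, and Lmx1a at 0.045, -0.084 and -0.011. Those of Dhrs3, the pseudogenes Prdx2-ps2 and Gm13024, had 2 and 5 other genes between them and Dhrs3, and differed by -0.058 and -0.00038. Their passages gave -0.30, -0.19 and 0.31 for Prdx2-ps2 and -0.019, -0.21 and 0.23 for Gm13024. Of the 12 neighbours of all members Nes, the intermediate filament nestin, had the largest difference, at 0.37. Nes was the nearest tested gene after Crabp2, with 2 other genes between them. It rose in the fit that blocks on passage (limma, adjusted p = 0.0350) but not without it (adjusted p = 0.42). Over 17 alternatives the adjusted p by limma ran from 0.0350 to 0.776. The call was lost in the block fits without passage 47, 54 or 56 (limma, adjusted p = 0.141, 0.107 and 0.0562) and with no dim filter (0.0585). Its difference was 0.24 without siDicer replicate 3.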

How the data were processed

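Each of 6 samples gave 100 ng of total RNA for an Affymetrix Clariom D mouse array, per the labels' protocols. The authors deposited log2 signals per transcript cluster, on a common scale across arrays and, per the submitters' processing notes, made with Affymetrix Expression Console. How they were summarised, normalised and centred, and the build, is not given in the sources used here. The log2 scale was read from the values (1.70 to 13.70). Precision is limited by the number of arrays.

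The value table had 16383 clusters of chromosomes 1 to 4, of which 7530 had 1 gene symbol in the platform annotation, 455 several and 8398 none. Symbols were updated through RefSeq (GRCm38.p6), changing 312. The highest mean cluster stood for each gene, and genes under the 30th percentile of mean signal were left out, so lower genes have no test. The siDicer and siScr arrays were compared in R 4.3.3 by limma 3.58.1 (lmFit, eBayes with trend, two-sided, Benjamini-Hochberg over 5233 genes, threshold 0.05), and passages with an F test in a model with siRNA and passage. Standard errors are those of the fit without passage, and include the spread between passages, unless passage is said to be in the fit. P-values measure the spread between these samples. An exact permutation test of 3 against 3 arrays cannot go below p = 0.1. Fits were tested on simulated data, in which the siRNA contrast was simulated without differences among passages, unlike in these data.

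The members and lists were chosen with earlier results of these data known. Named were the members, the tested retinoid genes, members of the other lists that passed with or without the block or else had the 3 smallest p-values, nearest profiles (5 for Rxrg, 3 for the member with the widest range among the other 5) and neighbours. Naming Tgm2, Nes by its size and the dim genes was decided after their values were seen. The labels give each replicate number 1 passage in both groups, which pairs the samples; deviations from group means correlated at 0.42, 0.63 and 0.08 for passages 47, 54 and 56. Alternatives were passage as a block, no filter on dim genes, quantile normalisation, median centring, array weights, no trend, the mean of a gene's clusters, no siRNA term and leaving out each array or passage. The block without the dim filter was added after the data were seen.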

Additional observations from a re-analysis of the deposited data

Results flagged for a closer look

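In 3 genes the difference between siDicer and siScr had opposite signs at different passages. Each passage gives 1 pair of arrays, so whether the passages differ was not tested. Rxra was at 0.13 and 0.10 at passages 47 and 54 and at -0.12 at passage 56. Crabp2 was at 0.028 at passage 47 and at -0.034 and -0.11 at passages 54 and 56. Rdh10 was at -0.24 and -0.13 at passages 47 and 56 and at 0.022 at passage 54.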

How the results depend on the processing

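Rxrg, Dhrs3, Dhrs9 and Rdh10 kept their direction under all 11 alternatives run on them, within -0.67 to -0.36, 0.26 to 0.67, 0.056 to 0.51 and -0.17 to -0.034. Not all of these could change it. The block leaves a difference as it is, because every passage has both groups, and each member had only 1 cluster to average. For Rxrg and Dhrs3, whose groups did not overlap, leaving out 1 array could not turn the sign either. Rxra turned in 2 of the 11 (from -0.040 without siDicer replicate 1 to 0.11) and Crabp2 in 1 (0.0030 without siScr replicate 3). Quantile normalisation and median centring moved the median of all tested genes by under 0.02. The 1 gene called between siDicer and siScr became 99 with passage as a block (replicate block), 46 with the block and no dim filter, 10, 33 and 156 with the block without passages 47, 54 and 56, 14 with array weights, and 0 to 2 with 1 array left out, lowest without siDicer replicate 3 and highest without siScr replicate 2. The block brought the calls of Rxrg among the members, Nr4a3 among the named list genes, Nes among the neighbours and Adhfe1, St6galnac3, H2ac21 and Lef1 among the genes of nearest profile, which were chosen by profiles that hold this difference. Rxrg was picked with this contrast known and Nes was named by its size, so nothing is read from their calls. The 103 genes called between passages became 65 without the dim filter, 217 after median centring, 20 without a term for the siRNA, and 42 to 315 with 1 array left out. Tgm2 ranged from -0.0071 without siDicer replicate 2 to 0.44 without siDicer replicate 3. The causes were not tested. Signal over background could not be measured from these values.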
